A study of Mus musculus with 10 samples.

Results

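Transcript levels of 7 receptor genes of the tumour necrosis factor (TNF) receptor superfamily were followed in mouse B cells: Tnfrsf13c (BAFF receptor), Tnfrsf13b (TACI), Cd40, Tnfrsf1a (TNF receptor type I), Tnfrsf1b (TNF receptor type II), Ltbr (lymphotoxin beta receptor) and Cd27. They were chosen by name, as the receptors through which a B cell receives survival, T cell help and inflammatory signals, and are 7 of the 17658 genes in the deposited table. Of these, 4 (Tnfrsf13c, Tnfrsf13b, Cd40 and Tnfrsf1b) averaged 1 FPKM or more across the 10 libraries and entered the tests. Tnfrsf1a, Ltbr and Cd27 did not, and are given by their values. FPKM are fragments scaled to transcript length and to the mapped fragments of a library, so levels of different genes can be set side by side.

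B cells came from spleen and lymph node of C57BL/6 mice aged 10 weeks and were enriched magnetically by removing other cells. The mice were Nr4a1+/+ (wild type, WT) or Nr4a1-/- (knockout, KO); Nr4a1, also called Nur77, encodes an orphan nuclear receptor that is induced by antigen receptor signals. For each genotype there was 1 library of cells that received no agent and 4 libraries, lettered A to D, of cells given 10 µg/mL anti-IgM for 2 hours, an antibody that crosslinks the antigen receptor. Both unstimulated libraries carry the letter A, as does 1 stimulated library of each genotype. The labels do not say whether libraries of the same letter share a source. The series asks which inducible genes depend on the genotype. The allele is described only as Nr4a1-/-, with no cell type restriction. The labels do not say whether a letter stands for a separate mouse or pool, so p-values measure only the spread between these libraries, which may be technical.

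BAFF, a cytokine made mainly by stromal and myeloid cells, keeps mature B cells alive through the BAFF receptor, while TACI binds BAFF and its relative APRIL and restrains B cell numbers. CD40 receives CD40 ligand from activated helper T cells and drives germinal centre formation and class switching. BAFF receptor, CD40 and lymphotoxin beta receptor recruit TRAF adaptors and can stabilise the kinase NIK, which leads to processing of the NF-kB precursor p100; TNF receptor type I carries a death domain, whereas TNF receptor type II and CD27 bind TRAF proteins directly.

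The promoters of Tnfrsf13c and Tnfrsf1b are shown because these were the 2 of the 4 tested receptors whose transcripts rose with stimulation. Each is the 250 bases before the annotated start in RefSeq (GRCm38.p6, the mm10 build), 5′ to 3′ on the gene's strand, which is the minus strand for both: chr15:82224381-82224630 for Tnfrsf13c and chr4:145246871-145247120 for Tnfrsf1b. Capitals mark GC boxes, GGGCGG on either strand.
Tnfrsf13c: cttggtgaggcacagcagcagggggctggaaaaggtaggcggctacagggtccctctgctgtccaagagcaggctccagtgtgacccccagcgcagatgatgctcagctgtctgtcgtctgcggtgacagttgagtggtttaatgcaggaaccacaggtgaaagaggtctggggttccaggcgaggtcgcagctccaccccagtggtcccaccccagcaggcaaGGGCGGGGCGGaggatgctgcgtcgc
Tnfrsf1b: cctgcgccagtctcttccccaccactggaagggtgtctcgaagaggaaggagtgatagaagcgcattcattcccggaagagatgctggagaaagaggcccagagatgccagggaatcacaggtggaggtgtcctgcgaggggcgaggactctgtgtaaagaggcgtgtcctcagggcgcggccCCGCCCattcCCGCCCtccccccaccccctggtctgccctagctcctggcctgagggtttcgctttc
Both hold 2 GC boxes, which overlap by 1 base in Tnfrsf13c (bases -26 to -21 and -21 to -16 from the start) and lie on the opposite strand in Tnfrsf1b (bases -67 to -62 and -57 to -52). Ltbr, whose level was lower after stimulation, holds 2 as well (bases -100 to -95 and -8 to -3), so the motif does not set apart the receptors that rose. GC boxes were looked for only after the other motifs gave no match, and 35.7% of 32851 promoters of 300 bases hold one, so their presence is common. Promoters of 6 of the 7 genes were matched, from 250 bases before to 50 after the start. The promoter of Cd40 was not in the sources used here and was not searched. None of the 6 held AAAGGTCA (the Nr4a monomer site, in 1.51% of all promoters), TGANTCA (AP-1, 7.81%), GCGTGGGCG (Egr, 0.612%) or the NF-kB consensus (8.46%), searched on both strands. No match says only that these letters are not in this window.

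The targeted gene did not separate the genotypes. Nr4a1 stood at 126.43 and 125.58 FPKM in the unstimulated WT and KO libraries, and at 808.07 ± 47.2 and 702.05 ± 44.6 FPKM (SD, n = 4 each) in the stimulated ones, with overlapping groups. The small difference (log2 change -0.20, limma adjusted p = 0.0432) lost its call under 11 of 20 alternative settings. The labels therefore could not be checked from this gene, and KO below means the libraries labelled knockout. The region that the allele removes is not given in the sources used here.

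B cell markers were high in every library: 6 of 6 listed genes were found and their summed level was 4031.72 and 3803.88 FPKM without stimulation and 1302 to 1427 FPKM after it. Between the stimulated genotypes Cd79b stood apart, at 365.48 to 389.71 FPKM in WT and 293.44 to 325.72 FPKM in KO, while the other listed B cell genes overlapped. The 7 T cell markers summed to 0.77 to 1.54 FPKM, with Cd3e at 0 in 3 libraries and at most 0.10 FPKM, and the 5 NK cell markers found of 6 listed to 0.21 to 1.15 FPKM. The 8 myeloid markers were uneven, at 40.6 to 140.93 FPKM in stimulated WT, 24.66 to 103.66 FPKM in stimulated KO and 76.91 and 92.46 FPKM without stimulation. Lyz2, a lysozyme of macrophages and neutrophils, made up most of that sum and was highest in WT B (114.95 FPKM) and KO B (82.57 FPKM). Among stimulated libraries Cd14, Itgam and Emr1 were also highest in the B library of each genotype. The list did not move as a whole: S100a8 and S100a9 were lowest there (0.56 and 0.60 FPKM in WT B, 0.41 and 0.52 FPKM in KO B). Csf1r and Csf3r were highest in other libraries. The 6 stromal and endothelial markers summed to 57.87 and 54.91 FPKM without stimulation, nearly all Pecam1, and to 4.74 to 6.00 FPKM after it. That fall was mostly of the 1 gene Pecam1, while Cdh5 of the same list was at 0.05 to 0.17 FPKM in all 10 libraries. Col1a1 and Col1a2 stood at 1.43 and 4.01 FPKM in unstimulated WT and at 0.26 and 0.65 FPKM in stimulated WT A. In every other library, unstimulated KO included, both were at most 0.14 FPKM. The summed level of the 4 plasma cell markers was higher in stimulated KO (77.06 to 94.67 FPKM) than in stimulated WT (70.67 to 76.70 FPKM). The two-sided exact permutation p was 0.0286, the smallest that 70 labellings allow, and 0.171 adjusted over the 6 lists. Of the single plasma cell genes only Prdm1 stood apart (3.41 to 3.96 FPKM in stimulated WT, 4.68 to 6.36 FPKM in stimulated KO). Sdc1, Igj and Xbp1 overlapped. The part of these cell types in the results below was not tested. In bulk libraries, fewer cells that express a gene and less RNA per cell cannot be told apart.

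Tnfrsf13c was by far the most abundant of the 7 in every library, and its mean level ranked 283 of 17658 genes. Cd40 and Tnfrsf1b followed, and their order turned with stimulation: without it Cd40 (61.06 and 55.75 FPKM) stood above Tnfrsf1b (17.00 and 20.42 FPKM). After anti-IgM the 2 overlapped in WT, although Tnfrsf1b was the higher within each library, whereas in KO every Tnfrsf1b value lay above every Cd40 value. Tnfrsf13b, at 6.24 to 11.67 FPKM, was next, below each of the 3 in every library. Tnfrsf1a, Cd27 and Ltbr were all at or under 1.22 FPKM. Tnfrsf1a and Cd27 overlapped in both stimulated groups, while Ltbr lay below both of them in all stimulated libraries.

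**Figure D1:**
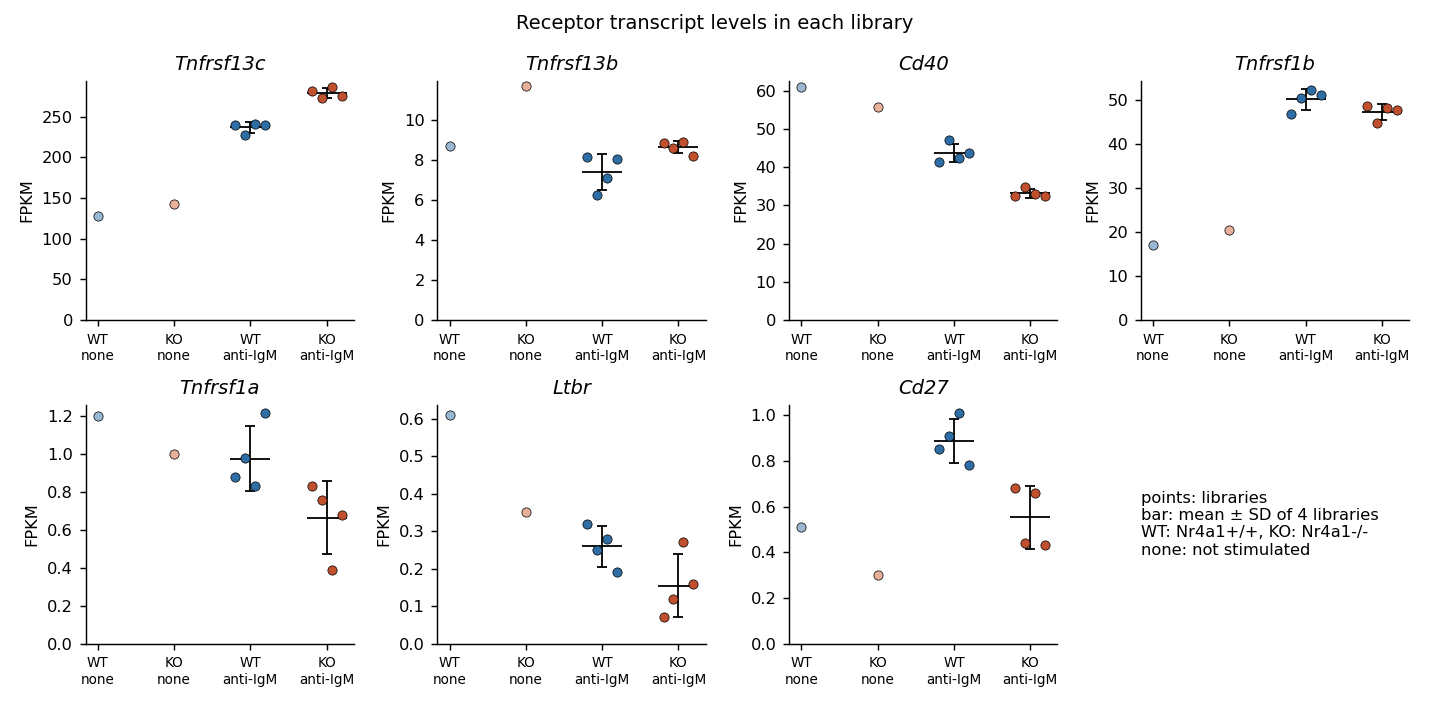
Level of each of the 7 receptors in FPKM (vertical axes, each from 0) in the 10 libraries, by genotype and stimulation; points are libraries and bars the mean ± SD of the 4 stimulated libraries of a genotype. Tnfrsf13c and Tnfrsf1b are higher in all stimulated libraries than in the unstimulated ones and Cd40 is lower, and the stimulated genotypes stand apart for Cd40 and Tnfrsf13c.

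Receptors of BAFF and APRIL came first. Tnfrsf13c, the receptor on which mature B cells depend for survival, stood at 127.63 FPKM in unstimulated WT and 142.81 FPKM in unstimulated KO. After anti-IgM it stood at 239.88, 227.22, 241.42 and 239.72 FPKM in WT A to D, and the KO libraries A to D had 281.39, 272.73, 285.92 and 275.38 FPKM. All 8 stimulated libraries lay above both unstimulated ones, and all 4 KO libraries lay above all 4 WT libraries. The level after stimulation was 1.86 times the unstimulated one in WT and 1.95 times in KO. In the fit of all 10 libraries, with a genotype term, Tnfrsf13c rose by 0.92 on the log2(FPKM + 1) scale (SE 0.0386, limma adjusted p = 2.25e-09). Between the stimulated genotypes it was higher in KO, at 278.86 ± 5.94 against 237.06 ± 6.60 FPKM (SD, n = 4 each), or 117.6% of WT (0.23 on the log2 scale, SE 0.0267, limma adjusted p = 0.000536). The rise with stimulation did not differ detectably between genotypes (difference 0.073, SE 0.0597, limma adjusted p = 0.440), and the unstimulated KO library was also higher than the WT one, by 0.16 on the log2 scale.

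Tnfrsf13b, which encodes TACI, had 8.70 FPKM in unstimulated WT and 11.67 FPKM in unstimulated KO. Its stimulated values were 8.15, 6.24, 7.11 and 8.07 FPKM in WT and 8.87, 8.61, 8.91 and 8.22 FPKM in KO. The 4 KO values lay just above the 4 WT values, but KO D (8.22 FPKM) and WT A (8.15 FPKM) nearly met, and the WT libraries spread more. The genotype difference did not pass the test (log2 change 0.21, SE 0.0754, limma adjusted p = 0.135). With stimulation Tnfrsf13b fell by 0.30 (SE 0.0872, limma adjusted p = 0.00755). Within each genotype all 4 stimulated values lay below the unstimulated one, yet the values overlap when the genotypes are pooled. The stimulation call was lost on each of 4 other scales: log2 changes were -0.16 after rescaling to the same sum, -0.14 with median-of-ratios scaling, -0.025 with quantile normalization and -0.17 without immunoglobulin genes. It was lost too without the unstimulated KO library (-0.22, limma adjusted p = 0.127). The 2 BAFF receptors thus moved unequally within each library: the ratio of Tnfrsf13c to Tnfrsf13b was 14.7 and 12.2 without stimulation and 29.4 to 36.4 after it.

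Cd40 was lower after anti-IgM and lower again in KO. Without stimulation it stood at 61.06 FPKM in WT and 55.75 FPKM in KO. After stimulation it stood at 41.40, 47.12, 42.48 and 43.76 FPKM in WT A to D, and the KO libraries A to D had 32.35, 34.81, 32.95 and 32.38 FPKM. The 3 sets of values, unstimulated, stimulated WT and stimulated KO, do not overlap. Cd40 fell by 0.60 with stimulation (SE 0.0639, limma adjusted p = 4.70e-06), to 0.716 times the unstimulated level in WT and 0.594 times in KO. In stimulated cells KO was at 75.8% of WT, 33.12 ± 1.16 against 43.69 ± 2.48 FPKM (SD, n = 4 each; -0.39 on the log2 scale, SE 0.0429, limma adjusted p = 0.000445). The difference between the 2 responses, -0.26 (SE 0.0956), did not pass the test (limma adjusted p = 0.0901). It was -0.44 after rescaling to the same sum and after leaving out immunoglobulin genes, and passed there. With median-of-ratios scaling and with quantile normalization it was -0.18 and did not pass. Rescaling to the same sum also moved the median over all tested genes, from -0.096 to -0.26. The difference rests on 1 unstimulated library per genotype.

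Libraries WT B and KO B, which held the highest myeloid marker sums of their groups, also held the highest Cd40 and the lowest Tnfrsf13c of their groups. The genotype difference of Cd40 was -0.35 without WT B and -0.41 without KO B, and that of Tnfrsf13c 0.21 and 0.24, all called.

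The ratio of Tnfrsf13c to Cd40 within a library does not change when each library is scaled by a single factor, although quantile normalization can change it. It was 2.09 and 2.56 in the unstimulated WT and KO libraries, 5.44 ± 0.435 in stimulated WT (range 4.82 to 5.79) and 8.43 ± 0.405 in stimulated KO (range 7.83 to 8.70; SD, n = 4 each). The 3 sets are separate, so stimulated libraries held more BAFF receptor transcript relative to Cd40 transcript, and those labelled knockout the most.

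**Figure D2:**
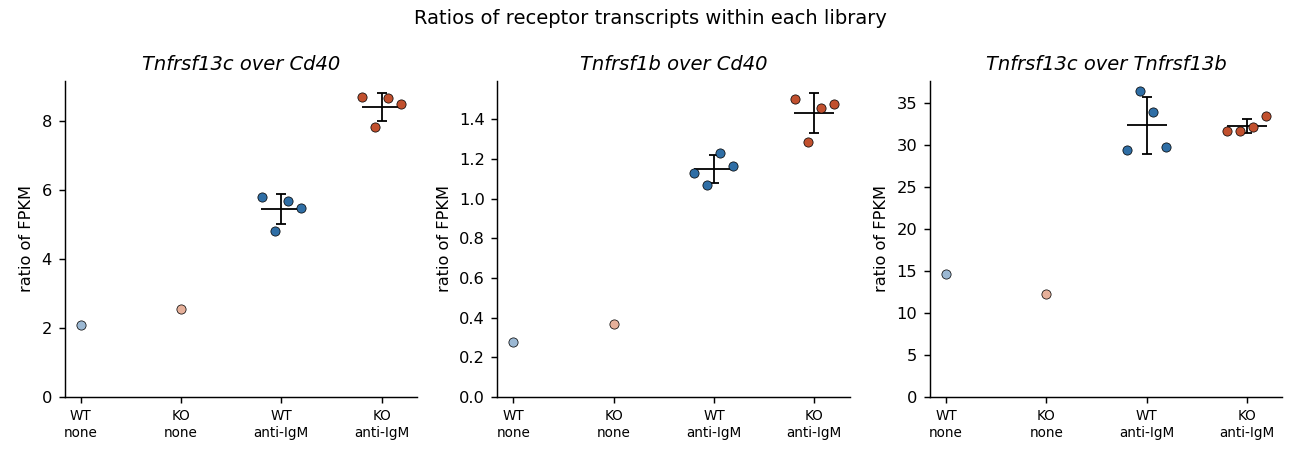
Ratio of 2 receptors' FPKM within each library (vertical axes, each from 0) by genotype and stimulation; points are libraries and bars the mean ± SD of 4 stimulated libraries. Tnfrsf13c over Cd40 goes from 2.09 and 2.56 to 4.82 to 5.79 in WT and 7.83 to 8.70 in KO, while Tnfrsf13c over Tnfrsf13b rises alike in both genotypes.

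Among the receptors of TNF and lymphotoxin, Tnfrsf1b showed the largest response of the tested 4. TNF receptor type II, which has no death domain, stood at 17.00 FPKM in unstimulated WT and 20.42 FPKM in unstimulated KO. After stimulation it stood at 46.73, 50.38, 52.38 and 51.05 FPKM in WT and at 48.67, 44.74, 48.10 and 47.85 FPKM in KO. Every stimulated value was more than double every unstimulated one, and the stimulated genotypes overlapped. Tnfrsf1b rose by 1.34 (SE 0.0702, limma adjusted p = 1.29e-08), to 2.95 times the unstimulated level in WT and 2.32 times in KO. After stimulation the genotypes differed by -0.081 (SE 0.0407), which did not pass the test (limma adjusted p = 0.291). The difference between the 2 responses was -0.33 (SE 0.0920, limma adjusted p = 0.0352). That call rests on 1 unstimulated library per genotype, assumed to vary like the stimulated groups, and was lost in 9 of 19 alternatives, among them median-of-ratios scaling (-0.25, limma adjusted p = 0.166) and leaving out WT B, WT C, WT D or KO D (limma adjusted p = 0.0571, 0.0510, 0.0609 and 0.0538).

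Tnfrsf1a, which encodes the death domain receptor of TNF, stood at 1.2 and 1.0 FPKM in unstimulated WT and KO. Its stimulated values were 0.88, 0.98, 0.83 and 1.22 FPKM in WT and 0.83, 0.76, 0.39 and 0.68 FPKM in KO, which touch at 0.83 FPKM. Tnfrsf1b was thus the more abundant of the TNF receptor transcripts in every library.

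Ltbr, the receptor through which lymphotoxin acts mainly on stromal and myeloid cells, had the lowest mean of the 7 over the 10 libraries, and stood at 0.61 and 0.35 FPKM without stimulation, slightly above Cd27. Stimulated values were 0.32, 0.25, 0.28 and 0.19 FPKM in WT and 0.07, 0.12, 0.27 and 0.16 FPKM in KO. Both unstimulated libraries lay above all 8 stimulated ones, and the genotypes overlapped.

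Cd27, a receptor for CD70 that is known as a marker of memory B cells in humans, stood at 0.51 and 0.30 FPKM without stimulation. Stimulated values were 0.85, 0.91, 1.01 and 0.78 FPKM in WT and 0.68, 0.44, 0.66 and 0.43 FPKM in KO. All 4 KO values lay below all 4 WT values. Stimulated and unstimulated values overlapped when the genotypes were pooled, while within each genotype all 4 stimulated values lay above the unstimulated one.

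With no filter on low values, 17658 genes were fitted. In that fit the genotype differences of Cd27 (-0.28, limma adjusted p = 0.0750), Tnfrsf1a (-0.25, 0.271) and Ltbr (-0.13, 0.334) did not pass the test, where 4.59% of genes were called. With stimulation Ltbr fell by 0.29 (limma adjusted p = 0.00281) and Cd27 rose by 0.29 (0.00875), where 54.4% of genes were called. Tnfrsf1a did not pass (-0.22, limma adjusted p = 0.121). Values this low come in steps, as whole fragments give (for Cd70 within 0.0769 steps of multiples of 0.065 FPKM), and the + 1 in the log scale shrinks their changes.

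Counted together, 2 of the 4 tested receptors were called between the stimulated genotypes, 1 higher in KO (Tnfrsf13c) and 1 lower (Cd40), where 9.72% of the 10225 tested genes were called (3.91% higher and 5.81% lower). Groups did not overlap for 3 of the 4 (Cd40, Tnfrsf13b and Tnfrsf13c), against 15.5% of tested genes, nor for Cd27 among the 3 that were not tested. With stimulation 4 of 4 were called, 2 higher and 2 lower, where 78.9% of tested genes were (31.2% higher and 47.7% lower), so that count is near the background. Stimulated and unstimulated libraries did not overlap for 3 of the 4 (Cd40, Tnfrsf13c and Tnfrsf1b), against 72.9% of tested genes, nor for Ltbr among the 3 that were not tested. Tnfrsf1b alone also passed a log2 change of 1 in size, which 20.3% of tested genes did (7.94% higher and 12.4% lower). For the difference in response, 1 of 4 was called, lower in KO, where 18.9% were (4.18% higher and 14.7% lower).

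The scale on which libraries are compared moved these backgrounds. As deposited, the tested genes had a median stimulation change of -0.17. Relative to it Tnfrsf1b changed by 1.51, Tnfrsf13c by 1.10, Cd40 by -0.43 and Tnfrsf13b by -0.13. Of the genes called with stimulation, 39.5% were higher on the deposited scale and 50.2% with median-of-ratios scaling; between genotypes the share was 40.2% against 57.2%, and for the difference in response 22.1% against 4.82% after rescaling to the same sum and 41.6% with median-of-ratios scaling. For the difference in response the median was -0.096 as deposited and -0.26 with equal sums, and relative to it Tnfrsf1b differed by -0.24 as deposited.

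**Figure D3:**
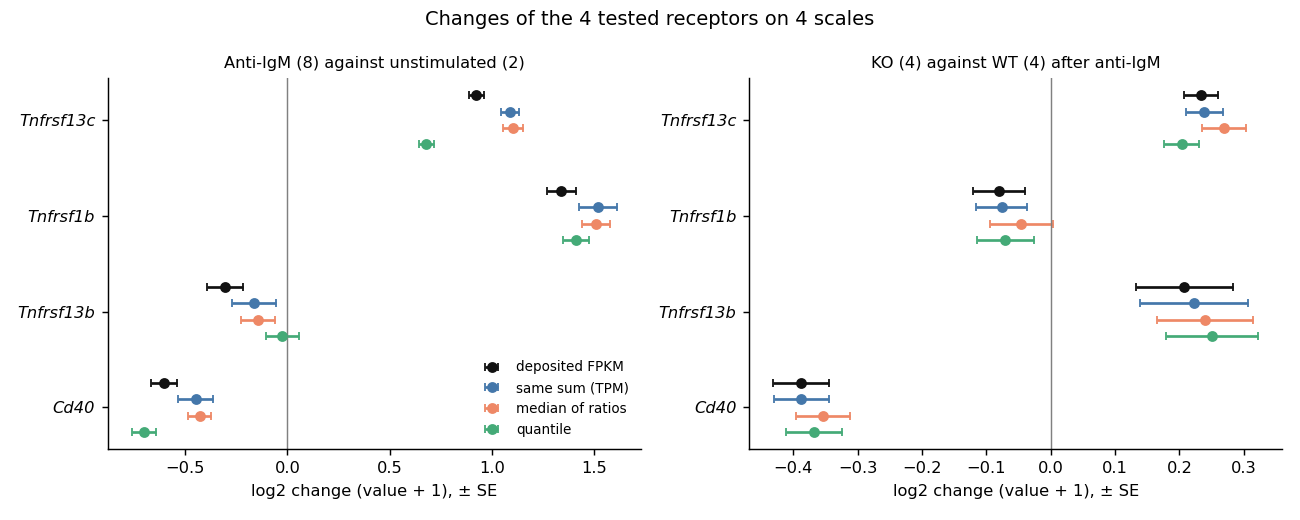
Log2 change (horizontal axes, value + 1) of the 4 tested receptors on the deposited FPKM scale, after rescaling to the same sum (TPM), with median-of-ratios scaling and with quantile normalization; points are limma estimates and bars ± SE, with 8 against 2 libraries on the left and 4 against 4 on the right. All 4 keep their direction on the 4 scales, and Tnfrsf13b comes close to 0 with quantile normalization on the left (-0.025).

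Without stimulation there was 1 library per genotype and so no test. The log2 differences of KO from WT were -0.13 for Cd40, 0.39 for Tnfrsf13b, 0.16 for Tnfrsf13c and 0.25 for Tnfrsf1b. The spread of such differences over all tested genes was 0.38 (SD) around a median of 0.067, and a larger absolute difference was found in 64.3%, 16.5%, 56.5% and 36.7% of tested genes, respectively. In absolute size, not measured from the median, the difference was thus largest for Tnfrsf13b and smallest for Cd40 among these receptors.

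The ligands were examined next. Of 8 listed, 3 were tested and 2 were called higher in stimulated KO, where 3.91% of all tested genes were. Tnf, the ligand of Tnfrsf1a and Tnfrsf1b, stood at 14.79 and 22.59 FPKM in unstimulated WT and KO, and at 32.5 ± 4.37 and 46.5 ± 5.02 FPKM (SD, n = 4 each) after stimulation. It rose with stimulation (1.04, limma adjusted p = 3.11e-06) and was higher in KO (0.51, limma adjusted p = 0.0103). Lta, which encodes lymphotoxin alpha, was also higher in KO, at 12.3 ± 1.08 against 8.24 ± 0.369 FPKM (SD, n = 4 each; 0.52, limma adjusted p = 0.000708), and its change with stimulation, -0.14, did not pass the test (limma adjusted p = 0.191). Groups did not overlap for either gene. Tnf was highest in WT B (38.71 FPKM) and KO B (52.98 FPKM), the libraries with the highest myeloid marker sums, and its genotype call held in all 20 alternatives, each of the 2 libraries left out included.

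Ltb, the membrane-anchoring partner of lymphotoxin alpha and ligand of Ltbr, was the most abundant ligand transcript without stimulation, at 227.71 and 237.29 FPKM. It fell by 2.29 (limma adjusted p = 4.82e-11), to 47.4 ± 3.07 FPKM in WT and 46.5 ± 0.978 FPKM in KO (SD, n = 4 each), and the genotypes overlapped. Ligands that B cells receive from other cells were near 0. Over the 10 libraries the mean was 0.148 FPKM for Tnfsf13b (BAFF), 0.096 for Tnfsf13 (APRIL) and 0.03 for Cd40lg. Cd40lg was at 0 in all stimulated libraries of both genotypes except WT C (0.08 FPKM). Cd70, the ligand of CD27, averaged 0.112 FPKM. Tnfsf14 (LIGHT), a second ligand of Ltbr, stood at 0.24 to 0.50 FPKM in stimulated WT and 0.69 to 0.87 FPKM in stimulated KO, without overlap, below the level tested.

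Of 57 listed genes of the wider pathway, 56 were found and 41 tested. Between stimulated genotypes 7 were called and all 7 were higher in KO (limma), where 9.72% of all tested genes were called and 3.91% were higher; the median change over the 41 was 0.028, against -0.024 for all tested genes. None was called lower, although 6 had an unadjusted p under 0.05 and a lower value, and 2 were called lower when KO B was left out (Birc2, -0.21, limma adjusted p = 0.0422, being 1 of them). Beside Tnf and Lta, these were Fas, Traf1, Nfkb1, Nfkb2 and Cflar. The count called higher was 5 to 10 over the alternatives.

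Fas, a death receptor of activated lymphocytes, had the largest difference among those that are not ligands. It stood at 7.37 and 4.82 FPKM in unstimulated WT and KO. After stimulation it had 7.40, 7.23, 8.01 and 6.40 FPKM in WT and 9.02, 11.98, 11.22 and 9.85 FPKM in KO. In WT the stimulated values surrounded the unstimulated one, and in KO they all lay above it. The genotype difference was 0.48 (SE 0.0891, limma adjusted p = 0.00886). Traf1, an adaptor that binds TRAF2 beneath Tnfrsf1b and Cd40, was higher in KO by 0.22 (SE 0.0336, limma adjusted p = 0.00312), with 123.80 to 138.32 FPKM in WT and 153.28 to 157.07 FPKM in KO. Nfkb1, which encodes the NF-kB precursor p105, was higher by 0.21 (SE 0.0277, limma adjusted p = 0.00139), with 368.55 to 397.33 FPKM in WT and 430.59 to 452.90 FPKM in KO.

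With stimulation 30 of the 41 were called, 14 higher and 16 lower, which is no larger a share than the 78.9% of all tested genes, with a median of -0.059 against -0.17 for all tested genes; the split was 18 higher and 11 lower after rescaling to the same sum, and 19 and 13 with median-of-ratios scaling. Tnfaip3, whose product A20 dampens NF-kB signalling below TNF receptors, rose most, by 2.75 (limma adjusted p = 1.99e-11), from 31.35 and 36.64 FPKM to 222 ± 13.9 in WT and 246 ± 6.78 FPKM in KO (SD, n = 4 each). Traf1 rose by 1.68 (limma adjusted p = 7.64e-11) and Nfkb1 by 1.53 (3.86e-10). Casp8, the caspase recruited to death receptors, fell by 1.83 (limma adjusted p = 2.51e-10), from 41.83 and 36.63 FPKM to 10.4 ± 0.377 and 10.2 ± 0.447 FPKM (SD, n = 4 each). Traf5, an adaptor of CD40, CD27 and Ltbr, fell by 1.81 (limma adjusted p = 2.71e-09), and Birc2, a ubiquitin ligase that with TRAF proteins keeps NIK low, by 1.12 (2.11e-08).

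**Figure D4:**
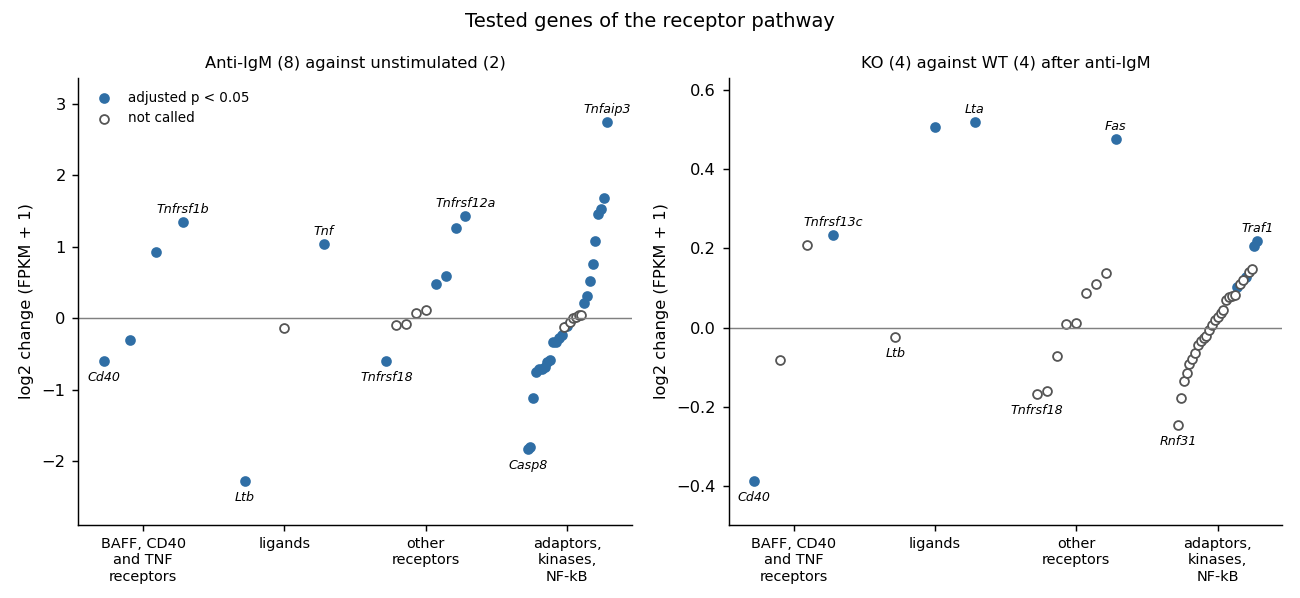
Log2 change (vertical axes, FPKM + 1) of the tested genes, grouped by role: the 4 tested receptors, their ligands, other receptors of the superfamily, and adaptors, kinases and NF-kB subunits; each point is 1 gene, filled where the limma adjusted p is under 0.05. With stimulation (left) called genes lie on both sides of 0; between genotypes (right) Cd40 is the one called gene below 0.

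For the difference in response, 9 of the 41 were called, near the 18.9% of all tested genes, with 8 lower in KO (14.7% of all tested genes) and 1 higher. The 8 were all among the 29 adaptors, kinases and NF-kB subunits, and the higher gene was Fas (difference 1.0, SE 0.200, limma adjusted p = 0.00969). The count of lower genes was 14 after rescaling to the same sum and 3 with median-of-ratios scaling, and it was 5 without WT D.

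Genes whose levels followed the receptors most closely over the 10 libraries were found by Pearson's r of log2(FPKM + 1) among 9329 genes, as a description. The libraries share their stimulation step, so high values are common. Tnfrsf13c was closest to Icam1 (r = 0.998), an adhesion molecule, which stood at 32.41 and 38.84 FPKM without stimulation and 101.94 to 107.07 FPKM in stimulated WT against 132.75 to 143.42 FPKM in stimulated KO. Next came Pdcd1lg2 (0.997), which encodes a ligand of PD-1. Tnfrsf1b was closest to Alg9 (0.998) and Eif6 (0.997). Cd40 was closest to Dcaf11 (0.990) and Arap2 (0.979), and Arap2 went from 44.65 and 35.24 FPKM to 27.45 to 29.56 FPKM in WT and 17.55 to 20.64 FPKM in KO. Tnfrsf13b was closest to Vhl (0.950) and Deaf1 (0.921), Tnfrsf1a to Mtmr1 (0.947) and Sppl2b (0.932), Ltbr to Ndufa4 (0.959) and Ginm1 (0.957), and Cd27 to Dph5 (0.930) and Galnt11 (0.908).

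The receptors lie on 5 chromosomes in RefSeq (GRCm38.p6). Cd40 spans chr2:165055614-165071654, Tnfrsf13b chr11:61126283-61153170, Tnfrsf13c chr15:82221742-82224380 and Tnfrsf1b chr4:145212368-145246870. The 3 receptors under 1 FPKM on average are neighbours on chromosome 6: Cd27 (chr6:125232620-125237136), Ltbr (chr6:125306571-125313885) and Tnfrsf1a (chr6:125349723-125362483) lie within 129.864 kb. Their low level was not shared by the whole region, since Tapbpl beside Cd27 stood at 16.74 to 21.25 FPKM, while Scnn1a, between Ltbr and Tnfrsf1a, was at 0 to 0.04 FPKM and Plekhg6 beyond Tnfrsf1a at 0 to 0.02 FPKM. The noncoding gene E130112N10Rik overlaps the span of Cd27 and moved the other way, from 2.72 and 2.06 FPKM to 0.49 to 1.08 FPKM with stimulation. Another noncoding gene of the stretch, 4930417O13Rik, stood at 0.59 and 0.78 FPKM without stimulation and 1.11 to 2.33 FPKM after it. The span of Tnfrsf13b overlaps that of Usp22 in RefSeq, and 5.54% of the exonic bases of Cd27 in GENCODE M21 are shared with Mir8113; whether the authors' estimates used strand is not given in the sources used here.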

How the data were processed

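RNA was measured in 10 libraries of mouse B cells, made, per the labels, with a strand-preserving mRNA kit. The authors deposited 1 table of FPKM per gene, and the submitters' processing notes name STAR 2.4, RSEM 1.2.14 and mm10; the annotation, any filter and strand handling are not given in the sources used here. FPKM carry no counts, so no count model was fitted and the absolute depth is unknown. The sum of FPKM was 557214 to 571784 in stimulated libraries and 674961 (WT) and 595500 (KO) in unstimulated ones.

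Values were transformed as log2(FPKM + 1), which understates changes of low genes. The 10225 genes averaging 1 FPKM or more were fitted with limma 3.58.1 in R 4.3.3 (eBayes with trend, two-sided, Benjamini-Hochberg adjustment over all genes tested, called at an adjusted p under 0.05). Genotypes were compared over 4 against 4 stimulated libraries, stimulation over 8 against 2 with genotype as a term, and the difference in response with 1 mean per group. The fits were tested on simulated data. Alternatives covered pseudocounts of 0.1 and 5, filters, scalings, eBayes options, the letter as a block and leaving out libraries.

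Members, lists and tests were chosen with earlier results of these data known. Named genes were the 7 receptors, Nr4a1, all listed ligands, in the genotype and the stimulation comparison the 3 largest called rises and falls of other pathway genes with groups apart, the 2 genes most correlated with each receptor, and neighbours on chromosome 6. Nfkb2, Cflar and Arap2's values were added after the values were seen, as was the GC box motif. Protein sequences were not used here.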

Additional observations from a re-analysis of the deposited data

Results flagged for a closer look

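In some groups of 4 stimulated libraries 1 library stood far from the other 3. Tnfrsf13c was at 227.22 FPKM in WT B, against 239.72 to 241.42 FPKM in the other WT libraries. Myeloid markers summed to 140.93 FPKM in WT B, against 40.6 to 45.33 FPKM, and Vhl was at 11.55 FPKM there, against 12.59 to 12.76 FPKM. T cell markers summed to 1.33 FPKM in WT A, against 1.14 to 1.16 FPKM. Cd40lg was at 0.08 FPKM in WT C and at 0 in the others. Among KO libraries, Cd70 was at 0.19 FPKM in KO C (0.06 to 0.07 in the others), Galnt11 at 23.79 FPKM in KO D (24.63 to 24.72) and Plekhg6 at 0.02 FPKM in KO D (0 in the others). These are 8 of 104 groups looked at, where chance gives about 1 in 20, or 5.2.

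The response to anti-IgM differed between genotypes for 4 of 32 named genes by limma's test of the difference: Tnfrsf1b by -0.33 (adjusted p = 0.0352), Fas by 1.0 (0.00969), Nfkb1 by -0.21 (0.0442) and Eif6 by -0.27 (0.0288), each KO minus WT on the log2 scale. Each rests on 1 unstimulated library per genotype. As a share, 4 of 32 is no larger than the 18.9% of all 10225 tested genes called in this test. Among 19 other settings, Nfkb1 missed the threshold under 10 and Tnfrsf1b under 9, whereas Fas stayed called under all 19.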

How the results depend on the processing

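The count of receptors called between genotypes was 2 in all 20 alternatives, with log2 changes from -0.41 to -0.35 for Cd40 and 0.20 to 0.27 for Tnfrsf13c. The count called with stimulation, 4 of 4 in the main fit, was 3 or 4 of 4 in 20 of 21 alternatives and 6 of 7 with no filter, which adds the 3 low receptors. The count that also passed the size threshold was 2 after rescaling to the same sum, with median-of-ratios scaling and without immunoglobulin genes, since Tnfrsf13c then passed, against 1 in the main fit. The count called for the difference in response, 1 in the main fit, was 0 with no filter, median-of-ratios scaling, quantile normalization, eBayes without trend and the letter as replicate block, 2 after rescaling to the same sum and without immunoglobulin genes, and 0 to 1 when single libraries were left out; the cause was not tested. The stimulation change of Fas, 0.48, was -0.023, or nearly no change, without the unstimulated KO library and 0.98 without the unstimulated WT library. It therefore depends on which unstimulated library is kept. With 1 such library per genotype, genotype and variation between libraries cannot be told apart. Stimulated libraries of the same letter did not deviate together (r from -0.122 to 0.0445 over 4 pairs, and 1 of 8 libraries correlated best with its own letter), so the letters were not taken as pairs, although WT B and KO B both held the highest myeloid marker sum of their group. Whether the unstimulated libraries, both lettered A, deviated together with the stimulated A libraries was not tested. With the letter as a replicate block, Cd40 (-0.39, limma adjusted p = 0.00131) and Tnfrsf13c (0.23, 0.00290) stayed called between genotypes, and Tnfrsf13b with stimulation (-0.22, 0.113) did not. Depth is unknown, and changes of Tnfrsf1a, Ltbr and Cd27 are limited by their low level.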

Other observations

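Receptors of the superfamily outside the 7 held further values, named here after they were seen. Tnfrsf9 (4-1BB), a costimulatory receptor, stood at 0.47 and 0.38 FPKM in unstimulated WT and KO. After anti-IgM it was at 0.93, 1.17, 1.15 and 1.62 FPKM in WT and at 0.38, 0.46, 0.78 and 0.42 FPKM in KO, so all WT libraries lay above all KO libraries and above both unstimulated ones. Tnfrsf11a (RANK) also stood apart, at 0.47 to 0.84 FPKM in stimulated WT and 0.32 to 0.41 FPKM in stimulated KO. Both genes were below the level tested and have no p-value. Tnfrsf12a, the receptor of TWEAK, went from 6.95 and 6.87 FPKM to 18.48 to 22.04 FPKM in both genotypes, and Tnfrsf21 from 1.36 and 2.11 FPKM to 4.77 to 6.06 FPKM.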
